A study of Macaca mulatta with 2 samples.

Results

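The 700 cells described here are T cells from the blood of 1 untreated rhesus monkey aged 6 years, selected on measured transcripts as *CCR7*+ *LEF1*+ and without *SOX4*. They were 9.21% (8.57 to 9.88) of 7601 kept cells, with a 95% exact binomial (Clopper-Pearson) interval. The sort first collected CD4+ cells from fresh blood mononuclear cells with releasable beads and then drew the CD8+ cells among them with a second set of beads, to enrich double positive (DP) T cells carrying both coreceptors. An RNA library and a library of antibody tags against CD4 and CD8 were made from the same 7923 cell barcodes, and each molecule was counted once through its unique molecular identifier (UMI). All cells therefore share 1 animal, 1 sort and 1 library, no group has a biological replicate, and no test between groups of cells was possible. All intervals are 95% intervals and cover counting error only.

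Naive T cells leave the thymus, circulate through blood and lymph nodes, and have not yet met their antigen. CCR7, a chemokine receptor, guides them into lymph nodes, and LEF1, a transcription factor of the Wnt pathway, is high in them and falls as they become memory or effector cells. SOX4 is a transcription factor found in thymocytes and in T cells that left the thymus recently. Among the other genes that mark the cells described here, *PLK2* encodes a polo-like kinase of stress responses, *SOCS3* a feedback inhibitor of cytokine signalling through STAT3, and *CD7* a surface glycoprotein of T cells that memory cells often lose.

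A cell was taken when it held at least 1 UMI of *CCR7*, of *LEF1* and of the CD3 genes *CD3D*, *CD3E* or *CD3G*, and none of *SOX4*, *FOXP3* (regulatory T cells), *GZMB* (cytotoxic cells), *CCR9*, *CXCR5* (homing and follicular receptors) or *MS4A1* (B cells). Of 7445 kept cells with a CD3 UMI, 1132 held both *CCR7* and *LEF1*. The exclusions then removed cells with a UMI of *SOX4* (85 cells), *FOXP3* (73), *GZMB* (130), *CCR9* (110), *CXCR5* (109) or *MS4A1* (29), some of them for more than 1 gene. The gate rests on few molecules. Just inside its limits were 349 cells with a single *CCR7* UMI and 387 with a single *LEF1* UMI, of which 195 (27.9% of the 700) had 1 of each, and 159 cells had 2 or more of each. Just outside lay 688 CD3+ cells with *CCR7* but no *LEF1* UMI and 458 with *LEF1* only, all without *GZMB* and the other excluded genes. The *CCR7*+ *LEF1*+ cells were also deeper than most, with a median of 4257.5 UMIs per cell against 3636 in all kept cells. When every cell was thinned at random to 2000 UMIs and the gate was applied again, 320 of 7106 cells (4.50%, 4.03 to 5.01) passed. Of these 320, 277 (86.6%, 82.3 to 90.1) were among the 700.

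Other cell groups served for comparison. The most like cells met every condition but held a *SOX4* UMI (62 cells, 36 of them with a single one, median 3344.5 UMIs). The comparison cells were 1595 CD3+ cells without *CCR7*, *LEF1* and *GZMB* UMIs (median 3715 UMIs). The 1146 cells with *CCR7* or *LEF1* only and 2937 *GZMB*+ T cells without *CCR7* and *LEF1* (median 3229 UMIs) were added to show the order of levels. A set of 86 cells without CD3 that held 3 or more B cell gene UMIs (median 4137.5 UMIs), called B gene cells, gave the background. Levels are CPM, the UMIs of a gene summed over a group per 1000000 UMIs of all genes in that group.

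The genes that mark these cells differed widely in how many cells showed them, although all were at higher levels than in the comparison cells. A *CD7* UMI was found in 83.4% of the *CCR7*+ *LEF1*+ cells (584 of 700), a *SOCS3* UMI in 140 cells (interval 17.1% to 23.2%) and a *PLK2* UMI in 18.1% (127). In the B gene cells the shares were 2.33%, 5.81% and 1.16%. After thinning to 2000 UMIs, the shares were 64.7% for *CD7*, 11.6% for *SOCS3* and 9.53% for *PLK2*, against 29.6%, 5.58% and 2.96% of the comparison cells. Most cells with *PLK2* or *SOCS3* therefore held few molecules of it. For *PLK2*, 90 cells had 1 UMI, 29 had 2 and 8 had more, and for *SOCS3*, 95 had 1, 34 had 2 and 11 had more. These genes were picked as markers with results of these data known, so their levels are a description.

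*CD7* (chromosome 16, 78668360 to 78673169 of Mmul_10) had 546 CPM (521 to 572) in the *CCR7*+ *LEF1*+ cells. It had 680 CPM (579 to 794) in *SOX4*+ cells, 503 in cells with *CCR7* or *LEF1* only, 262 (249 to 275) in comparison cells and 39.9 in *GZMB*+ cells. The *SOX4*+ cells thus had the highest level and the *GZMB*+ cells the lowest, and only the intervals of the *SOX4*-negative cells and of the cells with either gene only (483 to 523) overlapped. *PLK2* (chromosome 6, 56790524 to 56796802) had 55.0 CPM (47.1 to 63.8), against 29.6 (11.9 to 60.9) in *SOX4*+ cells. It had 43.3 CPM (37.6 to 49.5) in cells with either gene only, an interval that overlapped that of the *SOX4*-negative cells. Comparison cells had 18.8 CPM (15.5 to 22.6) of *PLK2* and *GZMB*+ cells 2.55. *SOCS3* (chromosome 16, 74717689 to 74719374) had 62.8 CPM (54.4 to 72.2), beside 62.8 (55.9 to 70.2) in cells with either gene only, and 33.8 (14.6 to 66.6), 29.5 (25.4 to 34.1) and 7.74 in *SOX4*+, comparison and *GZMB*+ cells. The intervals of the *SOX4*+ cells, which rest on 7 *PLK2* and 8 *SOCS3* UMIs, overlapped those of the *SOX4*-negative cells. A difference from *SOX4*+ cells was not detectable at this depth for either gene.

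**Figure D1:**
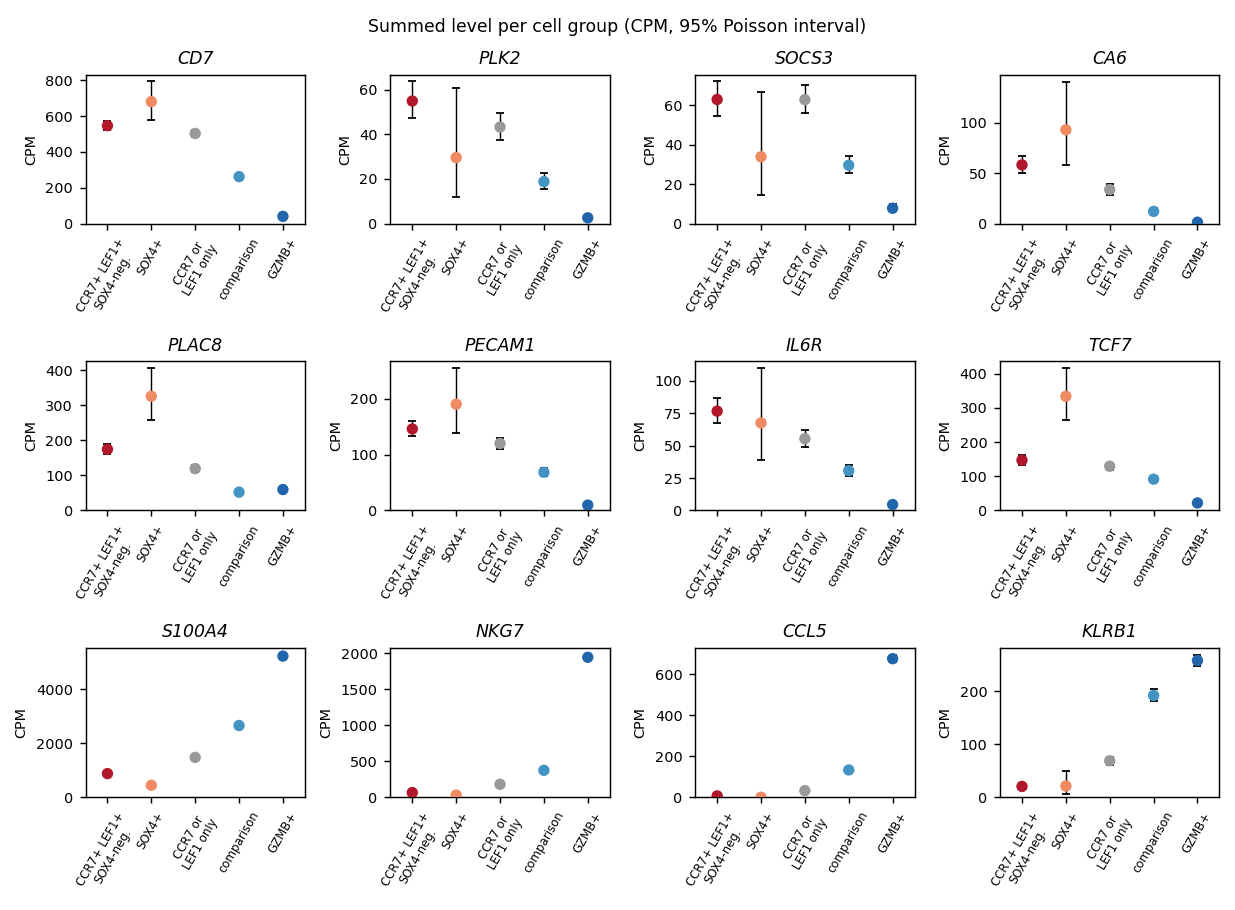
Summed level (CPM, with 95% Poisson intervals) of 12 genes in the 700 *CCR7*+ *LEF1*+ *SOX4*-negative cells, the 62 *SOX4*+ cells of the same gate, the 1146 cells with *CCR7* or *LEF1* only, the 1595 comparison cells and the 2937 *GZMB*+ cells. *CD7*, *PLK2* and *SOCS3* lie above the comparison cells in the *SOX4*-negative cells, and *S100A4*, *NKG7*, *CCL5* and *KLRB1* below them.

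A *SOCS3* UMI was found in a larger share of the cells with *PLK2* than of those without, in the full counts and after thinning, where fewer cells were left and the intervals overlapped. After thinning, 18.5% (9.92 to 30.0) of 65 cells with *PLK2* also held *SOCS3*, against 10.9% (8.52 to 13.6) of 617 without it. With all UMIs the shares were 29.9% (22.1 to 38.7) of 127 and 17.8% (14.8 to 21.2) of 573. Cells with *PLK2* were deeper, with a median of 4570 against 4228 UMIs, and as a level *SOCS3* was 83.4 against 57.7 CPM, a log2 ratio of 0.53 (0.05 to 0.99). On CPM + 10 the ratio was 0.46 with an interval that included 0 (-0.02 to 0.93), and 0.67 after thinning. Cells with *CCR7* or *LEF1* only had 19.8% of 81 against 10.8% of 1012 after thinning, and comparison cells 6.98% of 43 against 5.54% of 1409. With all UMIs these shares were 26.5% against 18.4% and 17.6% against 9.14%, so that the larger share beside *PLK2* was not particular to the *CCR7*+ *LEF1*+ cells.

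The 250 bases before the annotated transcript start of *PLK2* are given because the gene marks these cells. They come from the reference genome Mmul_10 and its RefSeq annotation, on the minus strand, as chr6:56796803-56797052. Capitals mark a match to TTCNNNGAA, the palindrome bound by STAT factors, which reads the same on both strands.
PLK2: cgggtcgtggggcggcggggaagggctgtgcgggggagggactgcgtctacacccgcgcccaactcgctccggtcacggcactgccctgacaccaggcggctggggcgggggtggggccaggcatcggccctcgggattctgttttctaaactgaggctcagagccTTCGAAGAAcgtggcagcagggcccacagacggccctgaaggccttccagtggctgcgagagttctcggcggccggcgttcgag
The window held 1 match, TTCGAAGAA beginning 84 bases before the start. The pattern TTCNNNGAA was present in 5.98% of 20787 promoter windows of this length of protein-coding genes. The AP-1 letters TGANTCA, which also read the same on both strands, were not in the window and were in 5.15% of all windows. A match of letters is not a shown binding site.

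Against the comparison cells, the *CCR7*+ *LEF1*+ *SOX4*-negative cells had higher levels of most listed naive genes and lower levels of memory and cytotoxic genes. Of 6719 genes that reached 50 UMIs in the group where they were higher, 18 (0.268%) were at least 2-fold higher and 94 (1.40%) at least 2-fold lower, on the scale of CPM + 10 and with the genes of the gate left out. The median log2 ratio of all 6719 genes was -0.13. These counts pass a fold and are not tests, and since cells were chosen on 2 naive genes, genes that vary with them had to differ too.

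The largest differences upward were those of *CA6*, which encodes a secreted carbonic anhydrase, and *PLAC8*. *CA6* (chromosome 1, 215516846 to 215560060) had 58.1 against 12 CPM, a log2 ratio of 2.28 (1.88 to 2.69), and *PLAC8* (chromosome 5, 50585255 to 50610051) had 174 against 51.9 CPM, a ratio of 1.75 (1.54 to 1.95). *OTUD5*, a deubiquitinase, had 132 against 42.8 CPM, and *GSTT1*, a glutathione transferase, 67.2 against 20.3. Only a minority of the cells held a UMI of *CA6* or *PLAC8*. A *CA6* UMI was found in 19.1% of the cells against 3.57% of comparison cells, and in 11.7% against 1.72% after thinning. *PLAC8* was found in 25.1% against 8.88% after thinning.

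The interleukin-6 receptor was higher in both its chains. *IL6R*, the ligand-binding chain, had 76.7 against 30.6 CPM, a log2 ratio of 1.32 (1.04 to 1.60), and *IL6ST*, the signalling chain gp130, had 100.2 against 38.6 CPM, a ratio of 1.38 (1.13 to 1.63). Genes that act past the receptor stood as follows. *STAT3* had 75.1 against 76.4 CPM, *JAK1* 243 against 293, and *SOCS3*, which binds gp130, stood at a log2 ratio of 1.09 (0.79 to 1.39) but stayed under the 2-fold limit on CPM + 10, at 0.88. It passed that limit without ribosomal protein and mitochondrial genes in the total (1.05), after thinning (1.06) and with a pseudocount of 1 CPM (1.06). It stayed under the limit as a mean over cells (0.89), between 3000 and 5000 UMIs (0.92) and without the 5% highest doublet scores (0.87). *RGS10*, a regulator of G protein signals, had 71.6 against 23.7 CPM, and *ACTN1*, an actin crosslinker, 66.0 against 22.1. *TCEA3*, an elongation factor, had 37.1 against 10.4 CPM, and *PLK2* a log2 ratio of 1.55 (1.20 to 1.90). These completed the 10 largest differences upward on CPM + 10 among the genes reported here.

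Of the 15 genes of the naive surface and homing list with enough UMIs, 7 were 2-fold higher and 0 were 2-fold lower. Their median log2 ratio was 0.99. Not all genes of that list encode surface or homing proteins, and the list was written with earlier results of these data known. The 7 were *CA6*, *PLAC8*, *GSTT1*, *ACTN1*, *IL6ST*, *IL6R* and *CD7* (ratio 1.06, 0.96 to 1.16). *PECAM1*, an adhesion receptor of naive and recently formed T cells, lay at the limit with 146 against 68.3 CPM and a ratio of 1.09 (0.90 to 1.29). *IL7R*, the receptor for the survival cytokine IL-7 that memory cells also carry, went the other way with 1331 against 1533 CPM. Of the 11 naive transcription factors, 0 passed 2-fold in either direction and the median was 0.19. *TCF7* had 147 against 91.3 CPM (ratio 0.68, 0.50 to 0.86), *FOXP1* 106 against 70.7, and *KLF2*, which controls homing receptors, 459 against 402.

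Most genes of protein synthesis lay slightly above 0, without reaching 2-fold. Of 77 ribosomal protein genes, 73 lay above 0 with a median log2 ratio of 0.21, and 0 were past 2-fold. Ribosomal proteins took 35.1% of the UMIs of the *CCR7*+ *LEF1*+ *SOX4*-negative cells, 36.7% of *SOX4*+ cells, 30.0% of comparison cells and 22.9% of *GZMB*+ cells. All 9 genes of the translation factor list lay above 0 too (median 0.16), led by *EEF1A1* with 17232 against 15845 CPM. Because ribosomal transcripts take so large a share, the level of every other gene moves with them. Without ribosomal and mitochondrial genes in the total, 30 genes were 2-fold higher and 121 lower, and the median of all genes moved from -0.13 to -0.07.

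The memory list was lower in all 19 features with enough UMIs, with a median log2 ratio of -0.64, and 5 were past 2-fold. *S100A4*, a calcium-binding protein of activated and memory cells (chromosome 1, 97523533 to 97525830), had 876 against 2659 CPM, a ratio of -1.60 (-1.66 to -1.54). *KLRB1*, the lectin receptor CD161, had 20.4 against 192 CPM, *HOPX* 27.6 against 194, *IL2RB* 28.9 against 105 and *LGALS3* 56.5 against 170. Of 11 cytotoxic genes, 10 were 2-fold lower and the median was -1.85. *CCL5* had 6.60 against 133 CPM (ratio -4.33, -5.03 to -3.71), *GNLY*, granulysin, 57.5 against 400 (-2.80, -3.02 to -2.58), *NKG7* 65.0 against 374 and *CST7* 37.4 against 238. *CTSW*, a cathepsin of cytotoxic cells outside the list, had 13.8 against 128 CPM. Both groups were without *GZMB* by the gate.

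Several of the lowest ratios moved with B cell and red cell transcripts in the comparison cells, which were not gated against *MS4A1*. The class II major histocompatibility complex genes *MAMU-DRA* (5.03 against 199 CPM) and *MAMU-DRB1* (29.5 against 288), their chaperone *CD74* (133 against 903) and the early response gene *EGR1* (4.08 against 95.3) stood at 8110, 5941, 24654 and 2421 CPM in the B gene cells. Of the 588 *EGR1* UMIs of the comparison cells, 190 were in 1 cell. In cells of both groups without a UMI of *CD79A*, *CD79B*, *MS4A1*, *HBA* or *HBB*, the log2 ratios on CPM + 10 were -1.25, -1.95, -1.35 and -0.53, so that *EGR1* no longer passed, while *CCL5* stayed at -3.06 and *GNLY* at -2.55. That choice, made after seeing the data, left 18 genes higher and 80 lower. The globin genes *HBA* (3 against 3329 UMIs, ratio -9.16, -11.44 to -7.61) and *HBB* (1 against 2654 UMIs, -10.42, -15.72 to -7.94) came almost wholly from 1 comparison cell, which held 3270 and 2649 of the UMIs.

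Markers of other cell types were scarce in the *CCR7*+ *LEF1*+ *SOX4*-negative cells. The B cell markers *BANK1* and *PAX5* were at 0, and the B cell list summed to 27.6 CPM (101 in comparison cells), most of it *CD79A* with 22.9. A *CD79A* UMI was nevertheless found in 9.43% (7.37 to 11.8) of the cells and in 6.39% (5.24 to 7.71) of comparison cells, and in 4.69% and 3.58% after thinning. Of 6 NK cell markers 3 were at 0 and the list summed to 41.2 against 166 CPM, nearly all *TYROBP* with 40.2 and with *KLRF1* at 0.628. The 7 monocyte markers summed to 2.51 CPM with 5 at 0, the 5 platelet markers to 1.26 with 4 at 0, and the 5 red cell markers to 1.26 with 3 at 0. The plasmacytoid dendritic cell markers *CLEC4C*, *TCF4* and *IL3RA* held no UMI. The 7 cycling markers summed to 19.2 against 32.6 CPM.

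Other pathways were near the median of all genes. In the SOCS and cytokine response list, 0 of 15 genes passed 2-fold and the median log2 ratio was -0.02. *PIM2*, a kinase induced by cytokines, had the highest ratio after *SOCS3* with 33.3 against 18.8 CPM (0.82, 0.43 to 1.22). In the PLK and p53 target list, *PLK2* was the 1 of 9 genes past 2-fold, with a median of -0.07. *PLK3*, the relative of *PLK2*, had 96.8 against 71.7 CPM (0.43, 0.22 to 0.65), and the p53 targets *CDKN1A* and *GADD45A* had 10.4 against 24.0 and 11.9 against 22.4. The medians of these lists changed sign with the choice of cells or scaling. Among 16 early response and AP-1 genes, 2 were 2-fold lower (*EGR1* and *NR4A1*, at 2.83 against 16.4 CPM) and the median was -0.22. Without the cells that held B gene or globin UMIs, 0 of 15 were 2-fold lower. *FOS* had 2317 against 2088 CPM and *JUNB* 809 against 576, a ratio of 0.49 (0.42 to 0.56).

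In the helper subset and regulatory list, 2 of 16 genes were 2-fold lower, the chemokine receptors *CXCR3* (23.6 against 67.8 CPM) and *CXCR6* (1 against 75 UMIs), with a median of -0.50. *CTLA4*, a checkpoint receptor, had 33.0 against 19.9 CPM, and *CXCL13* 21.4 against 10.1 with 26 of its 68 UMIs in 1 cell. None of 12 T cell receptor signalling genes (median -0.18), 12 interferon-stimulated genes (-0.27), 10 actin and cytoskeleton genes (-0.34), 7 coreceptor and lineage genes (-0.16) or 4 recent thymic emigrant genes (-0.08) passed 2-fold. Without the cells that held B gene or globin UMIs, 1 of 6 coreceptor and lineage genes was 2-fold lower. *ACTB* had 3422 against 4864 CPM and *CD2* 164 against 241. The lineage factor *RUNX3*, which is tied to the CD8 fate, had 25.1 against 58.0 CPM and *ZBTB7B*, tied to the CD4 fate, 12.9 against 11.7.

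**Figure D2:**
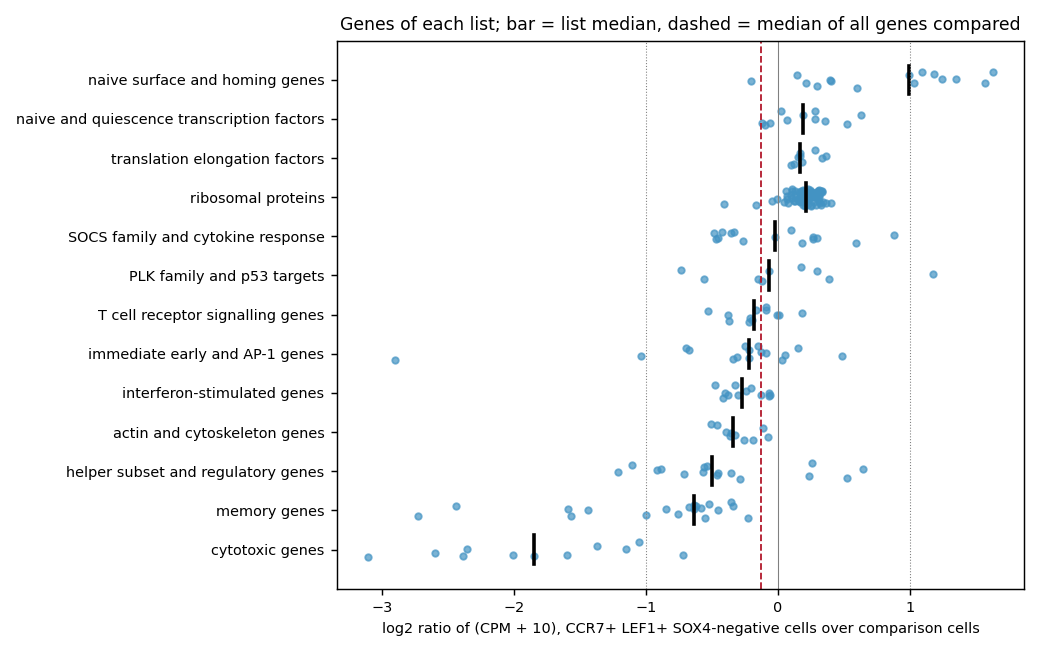
Log2 ratio of (CPM + 10) of the *CCR7*+ *LEF1*+ *SOX4*-negative cells over the comparison cells for the genes of 13 lists that reached 50 UMIs (points), with list medians (bars), the median of all genes compared (dashed, -0.13) and the 2-fold limits (dotted). The naive surface and homing list centres at 0.99, the memory list at -0.64 and the cytotoxic list at -1.85.

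The *SOX4*+ cells had less *S100A4* and more *TCF7* than the *SOX4*-negative cells. With only 62 cells, 50 UMIs correspond to 211 CPM in *SOX4*+ cells but to 15.7 CPM in the *SOX4*-negative cells, so the count of genes is lopsided by construction. Of 2923 genes, 208 (7.12%) were at least 2-fold higher and 2 (0.0684%) at least 2-fold lower in the *SOX4*-negative cells. With the same minimum of 100 CPM on both sides, chosen after these counts were seen, 17 of 1038 genes were higher and 13 lower, and the median log2 ratio moved from 0.29 to -0.04. The 2 genes lower in the main count were *RPIA*, an enzyme of the pentose phosphate pathway (83.3 against 211 CPM, ratio -1.34, -1.78 to -0.88), and *TCF7* (147 against 334 CPM, -1.19, -1.53 to -0.82). *PLAC8* (174 against 325 CPM, -0.90, -1.25 to -0.54) and *HMGN2*, a chromatin protein (254 against 448 CPM, -0.82, -1.11 to -0.51), came next. *RPIA* and *TCF7* were not counted after thinning, between 3000 and 5000 UMIs or with 2 UMIs of the gate genes. Over the 14 settings their log2 ratios ranged from -1.95 to -0.97 and from -1.32 to -0.96.

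The largest ratios on the other side belonged to genes with 0 or 1 UMI in the *SOX4*+ cells, which could pass the minimum only through the *SOX4*-negative cells. They were *TNFRSF4*, *PICALM*, *TRBV14*, *STAMBPL1*, *TRBV29-1*, *BTBD6*, *JOSD2*, *MRPL3*, *COQ2* and *TNK2*. The 113 UMIs of the receptor segment *TRBV14* and the 84 of *TRBV29-1* lay in only 15 and 16 of the *SOX4*-negative cells. *TNFRSF4*, the costimulatory receptor OX40, had a UMI in 12.6% of *SOX4*-negative cells and in 0 of 62 *SOX4*+ cells. The exact interval of that 0 reached a share of 5.78%, and setting it to 3 counts gave 4.84%. After thinning the share in *SOX4*-negative cells was 6.16%. Its level was 36.8 CPM (30.4 to 44.1) against 0 CPM (up to 15.6), and 2.90-fold higher with the 0 set to 3 counts over the group. The gene was picked for its large ratio, so this fold is a description. *STAMBPL1* had 160 against 1 UMI, a log2 ratio of 3.57 (1.07 to 8.89).

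Because of the minimum, the counts over lists that follow are a description and cannot show a direction. Of 15 memory genes, 5 were 2-fold higher in the *SOX4*-negative cells, and the whole list summed to 7006 against 4056 CPM. *AHNAK* had 511 against 165 CPM (1.63, 1.18 to 2.13), *ITGB1*, the beta 1 integrin, 212 against 84.5 (1.33, 0.69 to 2.05), and *S100A4* 876 against 444 (0.98, 0.70 to 1.28). The naive surface list summed to 4818 against 5171 CPM, and 8 of its 19 genes reached the minimum. Of these *ICAM2*, an adhesion ligand, was 2-fold higher (181 against 59.1 CPM, 1.61, 0.85 to 2.49). *GSTT1*, which did not reach the minimum, had 67.2 against 148 CPM (-1.14, -1.66 to -0.58), *IL6ST* 100.2 against 156 (-0.64, -1.14 to -0.11) and *CA6* 58.1 against 92.9 (-0.68, -1.32 to 0.03). Of 9 helper genes 4 were counted as higher, *TNFRSF4* and, on 1 UMI each in *SOX4*+ cells, *CCR6*, *CXCR3* and *PDCD1*. Of the naive transcription factors 1 of 8, *TCF7*, was 2-fold lower. *CD8A* was higher, at 149 against 50.7 CPM (1.56, 0.74 to 2.52), and was the 1 of 6 coreceptor genes to pass. Of 6 interferon genes 2 passed, *ISG15* and *MX1*, each on 1 UMI in *SOX4*+ cells, with an interval for *MX1* that touched 0. In the cytotoxic (5 genes), SOCS (9), PLK (4), early response (14), T cell receptor signalling (10), actin (10), translation factor (9) and ribosomal (74) lists 0 passed.

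The antibody tags, which the gate did not use, placed nearly all cells above the CD4 background but not above that of CD8. The median CD4 tag was 425.5 UMIs per cell (quartiles 338.5 and 539.25), against 432 in comparison cells, 316.5 in *SOX4*+ cells and 90 in B gene cells. The median CD8 tag, which recognises the alpha chain, was 334 UMIs (quartiles 143 and 583), against 311 in comparison cells, 118.5 in *SOX4*+ cells and 139.5 in B gene cells. The 90th percentiles in B gene cells, 191 UMIs for CD4 and 330.5 for CD8, were taken as the background. Of the 700 cells, 680 (97.1%) lay above it for CD4 and 353 (50.4%, 46.7 to 54.2) for CD8, and 347 (49.6%) above both. A further 333 were above for CD4 only, 6 for CD8 only and 14 for neither.

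The name DP rests on the sort for the 347 cells below the CD8 background, and not on their tags. In comparison cells 46.8% (44.3 to 49.3) were above the CD8 background, and in *SOX4*+ cells 8 of 62 (12.9%, 5.74 to 23.9), close to the 10.5% of B gene cells. The share was 50.5% in all kept cells, 49.6% in *GZMB*+ cells and 53.4% in cells with *CCR7* or *LEF1* only. The 50.4% of the *SOX4*-negative cells was therefore close to the share in the whole sort and not particular to them. In the plot of tag UMIs per cell the CD8 tag of the *SOX4*-negative cells covers both the range of the *SOX4*+ cells and a higher range.

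**Figure D3:**
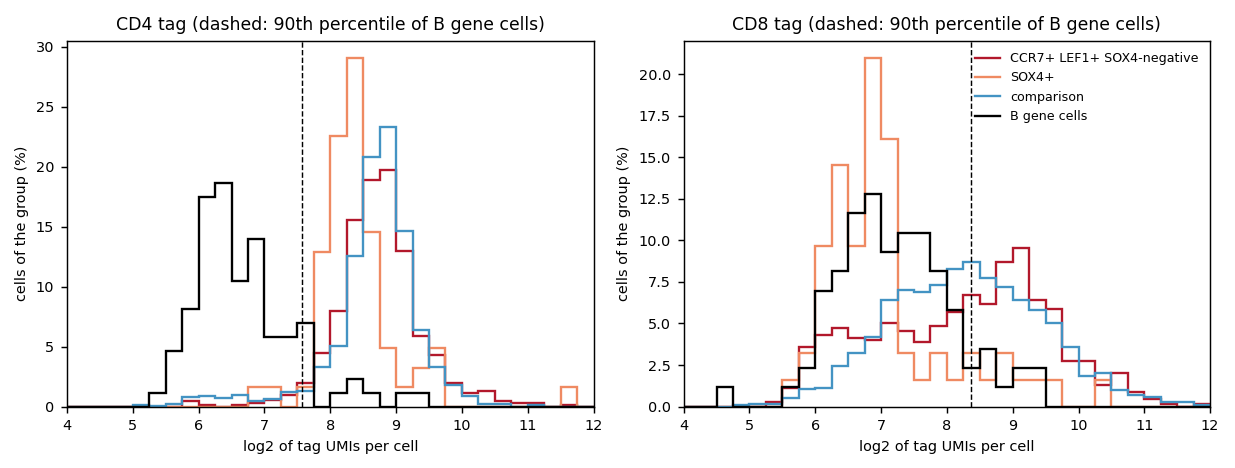
Share of cells (percent, in steps on a log2 axis) by CD4 tag and CD8 tag UMIs per cell in the 700 *CCR7*+ *LEF1*+ *SOX4*-negative cells, 62 *SOX4*+ cells, 1595 comparison cells and 86 B gene cells. The axis ends before the few highest cells. Dashed lines mark the 90th percentile in B gene cells (191 and 330.5 UMIs), which 680 of the 700 cells exceed for CD4 and 353 for CD8.

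The 353 cells above the CD8 background and the 347 below it had different *CD8A* transcript and different levels of *PLAC8* and *CA6*. Of 3240 genes, 5 (0.154%) were at least 2-fold higher above the background and 3 (0.0926%) at least 2-fold lower. *CD8A*, the alpha chain (chromosome 13, 19092978 to 19100027), had 236 against 38.0 CPM, a log2 ratio of 2.63 (2.22 to 3.07), and a UMI in 35.2% against 6.80% of thinned cells. *CD8B*, the beta chain, had only 41 against 10 UMIs (22.9 against 7.17 CPM, 1.68, 0.65 to 2.84), with 10 of the 41 in 1 cell. On CPM + 10 its ratio was 0.94 with an interval that included 0 (-0.08 to 2.10), and its thinned shares over 4 groups of rising CD8 tag were 2.35%, 2.92%, 4.71% and 1.75%. *CD4* had 165 against 130 CPM (0.34, 0.07 to 0.62). Of the coreceptor genes, *CD8A* alone passed 2-fold.

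The others that were higher were *CTSL*, a lysosomal protease (57.6 against 23.0 CPM), *IL18*, a cytokine (33.5 against 11.5), *LPXN*, leupaxin (53.1 against 21.5), and the receptor segment *TRBV11-1*, with 34 of its 101 UMIs in 1 cell. The 3 lower were *PLAC8* (110 against 257 CPM, -1.23, -1.49 to -0.97) and the receptor segments *TRAV20* and *TRAV12-3*. *CA6* stood at 37.4 against 84.7 CPM (-1.18, -1.63 to -0.73) and was just short of the limit on CPM + 10, at -0.996. *PLK2* (58.1 against 50.9 CPM, 0.19, -0.26 to 0.65) and *SOCS3* (66.0 against 58.8, 0.17, -0.25 to 0.59) had intervals that included 0. Of 15 memory genes 13 lay above 0 with a median of 0.32. Of 15 genes of the naive surface and homing list 11 lay below 0 with a median of -0.24. The median of all genes was 0.04.

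Across 4 groups of about equal size by CD8 tag, *CD8A* was highest and *PLAC8* lowest in the group with the most tag. *CD8A* had 5.95 CPM (1.62 to 15.2) in the 176 cells of the lowest group and then 71.9, 171 and 289 CPM (256 to 325). *PLAC8* had 336 (294 to 383), 180, 116 and 105 CPM, *CA6* 119, 51.5, 34.9 and 40.2, and *PECAM1* 207, 145, 126 and 120.5. *S100A4* had 471 (421 to 526), 895, 836 and 1175 CPM. The interval of the lowest group did not overlap that of the next for *CD8A*, *PLAC8*, *CA6* and *S100A4*, but it did for *PECAM1*, and the thinned shares overlapped for *CA6* and *PECAM1*. *PLK2* had 58.0, 44.7, 57.4 and 58.7 CPM. The gate genes were themselves lower with more tag, *CCR7* at 504, 447, 407 and 334 CPM and *LEF1* at 470, 400, 374 and 341. The median depth was also higher with the tag, at 3688 UMIs in the lowest group and 5044 in the highest, and so was the median CD4 tag, at 339.5 and 542. Thinned shares of *PLAC8*, 42.9%, 24.0%, 20% and 13.5%, kept the order, and the part of depth in the tag itself was not tested.

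**Figure D4:**
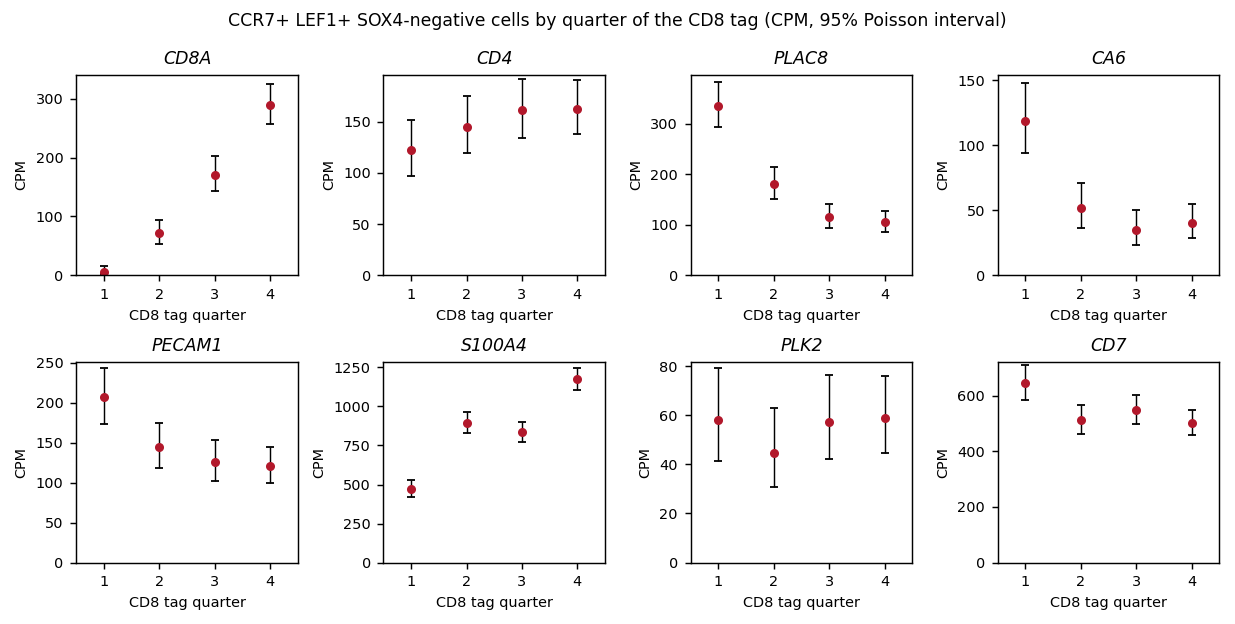
Summed level (CPM, with 95% Poisson intervals) of 8 genes in the 700 *CCR7*+ *LEF1*+ *SOX4*-negative cells, split into 4 groups of about equal size from low to high CD8 tag. *CD8A* goes from 5.95 to 289 CPM, *PLAC8* from 336 to 105 and *S100A4* from 471 to 1175, while *PLK2* stays between 44.7 and 58.7.

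Few genes passed 2-fold between cells with and without a *PLK2* UMI. Of 2870 genes, 1 without a symbol (0.0348%) was 2-fold higher and 14 (0.488%) were 2-fold lower in the 127 cells with *PLK2*, whose smaller number makes a gene hard to count as higher. *JUNB* had 1027 against 754 CPM (0.45, 0.32 to 0.57), *NR4A2*, an early response nuclear receptor, 220 against 143 (0.63, 0.34 to 0.91), and *FOS* 2592 against 2249 (0.20, 0.12 to 0.28). Of the 13 early response genes with enough UMIs, 11 lay above 0 with a median of 0.22, against -0.11 for all genes. *GZMK*, the granzyme of early memory cells, had 4 against 191 UMIs (-3.58, -5.47 to -2.20), and *TYROBP*, a signalling adaptor, 8 against 120 UMIs (-1.90, -3.15 to -0.88). *CD7* (525 against 551 CPM) and *TCF7* (143 against 148) had intervals of the ratio that included 0.

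Cells that passed the gate varied in their memory transcript. The memory list took a median of 0.531% of a cell's UMIs, but 0.163% at the 10th percentile and 1.40% at the 90th. In *SOX4*+ cells the median was 0.206%, in comparison cells 1.12% and in *GZMB*+ cells 1.73%. Within the gate, cells below the CD8 background had a median of 0.382% and those above it 0.592%. An *S100A4* UMI was found in 58.6% of the cells against 84.6% of comparison cells, and 1 cell held 103 of the 2788 UMIs. The cytotoxic list took 0% at the median and 0.0542% at the 90th percentile, against 0.0644% and 0.577% in comparison cells.

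T cell receptor segments were compared as shares of cells. A UMI of 23 of 25 named alpha and 21 of 21 beta variable segments was found among the 700 cells, beside 23 and 20 in both comparison and *GZMB*+ cells, and the 3 most frequent held 24.1% of the alpha and 31.5% of the beta pairs of cell and segment. In comparison cells the 3 most frequent held 28.4% and 35.6%, in *GZMB*+ cells 54.5% and 43.6%, and in the 62 *SOX4*+ cells 31.7% of 41 alpha and 42.1% of 38 beta pairs. The segments in most cells were *TRAV29DV5* (6.57%, 4.85 to 8.67), *TRBV5-1* (6.57%, 4.85 to 8.67) and *TRBV27* (6.00%, 4.36 to 8.02). For *TRAV29DV5* the share was 3.26% (2.44 to 4.25) in comparison cells and 1.19% (0.831 to 1.65) in *GZMB*+ cells, and after thinning 3.96%, 2.48% and 0.873%. *TRAV19*, chosen after its values were seen, was in 3.86% (2.56 to 5.56) of the cells and in 17.1% (15.8 to 18.5) of *GZMB*+ cells. Segments resemble each other, so reads may be split among them, and a segment names no clone.

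**Figure D5:**
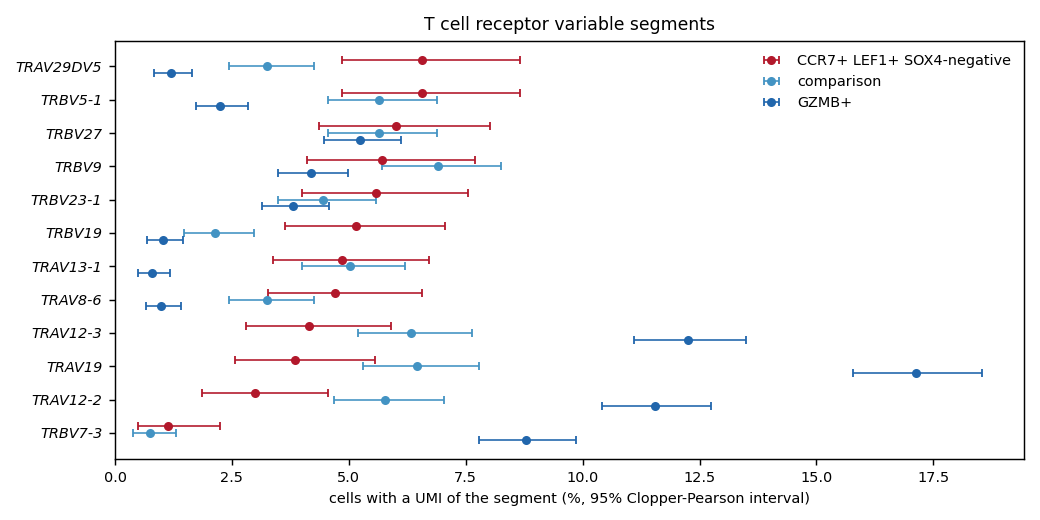
Share of cells (percent, with 95% Clopper-Pearson intervals) with a UMI of each of 12 T cell receptor variable segments in the 700 *CCR7*+ *LEF1*+ *SOX4*-negative cells, the comparison cells and the *GZMB*+ cells. No segment exceeds 6.57% in the first, whereas *TRAV19* reaches 17.1% of *GZMB*+ cells.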

How the data were processed

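The submitters' processing notes name Cell Ranger 3.1.0, STAR 2.5.1b and Seurat 3.1.3 and the Mmul_10 genome. The authors deposited raw UMI counts of 35432 genes and 2 tags in 7923 barcodes, without normalization. The cell filter kept barcodes of 200 to 4000 genes in which mitochondrial UMIs (13 named genes and 2 unnamed features) did not exceed 20%. The cells, gene lists and markers were chosen with earlier results of these data known. The text names, in each comparison, genes from the 10 a direction with the largest ratio of CPM + 10 among genes with 50 UMIs, the markers, and list genes with most UMIs or the largest ratios. Results for some genes are not reported here. Ratios of CPM have exact intervals from the binomial split of both counts, and levels exact Poisson intervals. A count of 0 is also given as set to 3 counts. No test was possible. Shares were also computed after thinning to 2000 UMIs, which dropped 495 of 7601 cells. Scrublet at an expected 6% marked 0 cells by its own threshold and so did not work, and no doublet was removed. Computation was tested on simulated data. The tools were matplotlib 3.10.9, scanpy 1.11.5, pandas 2.3.3, scipy 1.17.1 and numpy 2.4.6 under Python 3.11.15. Alternatives were other pseudocounts, minimums, scalings, depth windows, cell filters, gates and tag thresholds.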

Additional observations from a re-analysis of the deposited data

Results flagged for a closer look

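Of 322 barcodes that the cell filter left out, 22 met the gate for *CCR7*+ *LEF1*+ *SOX4*-negative cells. They were noticed because they lie in data that the comparisons do not use, and they were not analysed further.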

How the results depend on the processing

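The share of 9.21% became 2.09% when 2 UMIs of *CCR7* and of *LEF1* were required and 4.50% when the gate was applied to thinned UMIs. Of the genes 2-fold different from the comparison cells, 18 higher and 94 lower became 38 and 227 with a pseudocount of 1 CPM, 2 and 21 with 50 CPM, and 5 and 23 at a minimum of 100 CPM in the higher group, chosen after seeing the data. The higher count became 30 without ribosomal protein and mitochondrial genes and 11 with the gate on thinned UMIs, of which 8 were among the 18. The lower count became 150 with 2 UMIs required. Of the genes 2-fold different from *SOX4*+ cells, 208 higher and 2 lower became 474 and 2 with 1 CPM, 3 and 0 with 50 CPM, 17 and 13 at 100 CPM, 296 and 17 with 20 UMIs, 296 and 94 with no minimum, and 83 and 0 with 2 UMIs of the gate genes. Of the 208, 46 were among 181 higher genes after thinning and 74 among 255 between 3000 and 5000 UMIs. The lower count became 0 after thinning and between 3000 and 5000 UMIs, and 1 with the gate on thinned UMIs and with a 10% mitochondrial limit. The log2 ratios of *RPIA* (-1.95 to -0.97) and *TCF7* (-1.32 to -0.96) nevertheless stayed below 0 in all 14 settings. The median CD8 tag of 334 became 283 between 3000 and 5000 UMIs and 289 with the gate on thinned UMIs, and the CD4 tag of 425.5 became 401 and 393.5. No direction reversed among the *CD8B*, *SOCS3*, *PLK2* and *CD7* ratios under the alternatives run, whereas the *HBA* and *HBB* ratios were at 0 without cells holding globin UMIs and *HBB* reached 0.03 in 1 other setting. The causes of these changes were not tested. The top 5% of doublet scores, 489 cells with ties, held 19 of the 700 cells, and leaving them out gave 18 genes higher, 16 of them shared, and 101 lower. Depth limits the genes of few UMIs, above all in the 62 *SOX4*+ cells. No paired analysis was possible because there is 1 sample.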
